A study of Mus musculus with 6 samples.

Results

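The lysosomal set comprised 41 genes: hydrolases of the lysosome, proteins that assist them, proteins of its membrane, and the transcription factors of the TFEB family. Members were found by gene symbol in the annotation of the array, and all 41 were measured, each by 1 probe set, among 18784 genes. The cells were cultured mouse B lymphomas null for the tumour suppressor Arf, with 2 transgenes, Eµ-myc, which drives the MYC oncoprotein in B cells, and Bcl-2. Both groups shared this genotype and were grown on irradiated mouse embryonic fibroblasts that also lack Arf. There were 3 arrays from cells transduced with the control hairpin Rluc.713 and 3 from cells with the hairpin Dhx9.1241, whose target Dhx9 encodes a DExH-box helicase. The study looked for modifiers of the response of MYC-driven lymphomas to the BCL-2 family inhibitor ABT-737, but the labels name no drug on these arrays and state neither age nor strain nor whether a group holds 1 tumour or several.

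The lysosome is the acidic compartment in which cells break down proteins, glycans, lipids and nucleic acids taken up from outside or delivered by autophagy. Most of its enzymes are made in the secretory pathway, tagged with mannose 6-phosphate, carried to endosomes by receptors and kept active by a proton pump, the vacuolar ATPase. TFEB, TFE3 and MITF are related factors that bind E-box sequences, among them the CLEAR element found near many lysosomal genes, and the kinase complex mTORC1 holds them in the cytoplasm when nutrients are plentiful. Macrophages and other myeloid cells are rich in lysosomes, and B cells use lysosomal proteases to process antigen.

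The label of the hairpin was checked first. The Dhx9 level, on the log2 scale of the deposited values, was 12.40, 12.48 and 12.36 on the Rluc.713 arrays and 11.46, 11.43 and 11.38 on the Dhx9.1241 arrays, which is -0.99 as a log2 difference (SE 0.053, limma adjusted p = 0.000129). Sample titles name Dhx29 instead, whose log2 change was 0.04 (SE 0.053, limma adjusted p = 0.857). Of 12 measured B cell markers, 11 had a level at or above the median of all genes, as had 8 of 27 fibroblast markers and 11 of 23 myeloid markers. The fibroblast markers had a median level of 7.88 against 8.47 for all genes. Pairs of arrays correlated between 0.9959 and 0.9988 over all genes. On Rluc.713 replicate 1 the deviation from the group mean went down as the level of a gene went up (r = -0.38). On Rluc.713 replicates 2 and 3 it went up (r = 0.31 and 0.25). Deviations from a mean of 3 arrays are tied to one another, and genes are not independent replicates. Nothing in the labels says that the replicates were separate cultures, so the p-values speak only to the spread among arrays, part or all of which may be technical.

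Promoter sequences are shown for a pair of membrane protein genes, 1 that passed the test below and 1 that did not, because both hold the core of the element that the TFEB family binds. RefSeq promoter windows of assembly GRCm38.p6, 250 bases before to 50 after a start site, were given for 38 of the 41 genes; Ctsb, Ctsh and Asah1 had none. The lines below give, 5′ to 3′ on the plus strand, the 250 bases upstream of Mcoln1 (chr8:3500269-3500518) and of Lamp1 (chr8:13158911-13159160), with each E-box CACGTG in capitals, or TCACGTGA where the longer match was found.

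Mcoln1: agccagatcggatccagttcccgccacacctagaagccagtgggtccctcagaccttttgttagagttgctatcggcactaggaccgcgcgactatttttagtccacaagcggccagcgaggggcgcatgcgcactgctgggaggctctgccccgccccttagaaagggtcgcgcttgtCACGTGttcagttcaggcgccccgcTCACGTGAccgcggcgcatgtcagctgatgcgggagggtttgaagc
Lamp1: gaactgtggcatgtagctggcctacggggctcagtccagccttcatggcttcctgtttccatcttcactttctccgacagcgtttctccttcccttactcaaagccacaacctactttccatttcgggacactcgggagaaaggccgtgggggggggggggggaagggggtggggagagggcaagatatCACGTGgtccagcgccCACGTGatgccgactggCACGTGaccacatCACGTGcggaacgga

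The Mcoln1 window held 2 copies of CACGTG, the first base of each at -71 and -45 from the start site, and the second lay inside TCACGTGA. The Lamp1 window held 4 copies, at -61, -45, -28 and -15, and no TCACGTGA. Windows were searched for CACGTG, for TCACGTGA, which contains it, and for the CLEAR palindrome, which contains both; each is its own reverse complement, so both strands were covered. Among the lysosomal genes, 12 of 38 (31.6%) held CACGTG in a window, against 9.52% of the 15060 measured genes with a window. The longer TCACGTGA was in 5 genes (13.2%, against 1.55%): Ctsa, Ctsd, Gla, Cln3 and Mcoln1. The CLEAR palindrome was in 1, Cln3 (2.63%, against 0.525%). By windows rather than genes, CACGTG was in 24.5% of the 49 windows of the set and in 8.27% of the 18518 windows of measured genes. MYC and MAX also bind CACGTG, and a match describes letters only.

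The level of the lysosomal genes was close to equal in the 2 groups. At an adjusted p under 0.05 in limma's test over all genes, 1 of 41 members rose, Mcoln1, and 0 fell (2.44%); over all genes 3.14% passed in either direction, 2.07% of them upwards and 1.07% downwards. The median log2 change of the members was 0.02, against 0 over all genes, with a range from -0.17 to 0.30. The counts were 3 up and 1 down under a repeated quantile normalization and 4 and 1 under cyclic loess. Over all genes, too, more were called lower under both. The count of all genes called higher under them is not given here, so the rise in higher members has no background beside it. Every 95% interval of the 41 lay between -0.29 and 0.41, that is, from 1.22-fold lower to 1.33-fold higher. For 35 members the interval lay within -0.25 to 0.25. At an unadjusted p under 0.05, 6 members were higher and 3 lower (22.0%), against 14.1% of all genes and 22.1% of the 9392 brighter genes, those whose mean level was at least the median, where 37 of the 41 members lay.

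**Figure D1:**
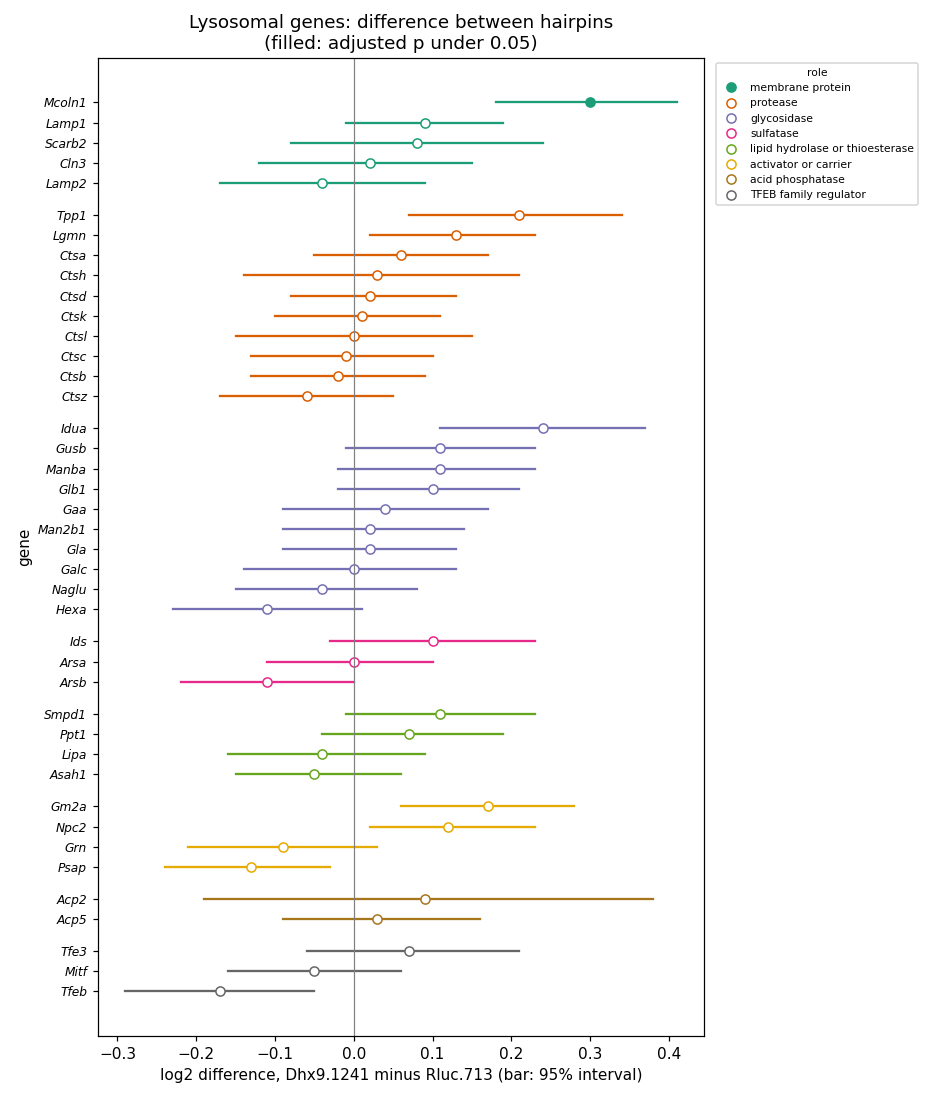
Log2 difference between the hairpins (x axis, Dhx9.1241 minus Rluc.713) for each of the 41 lysosomal genes (y axis), grouped and coloured by role, with points for the estimate, bars for limma's 95% interval and filled points for an adjusted p under 0.05. Only Mcoln1, at 0.30, is filled, and no bar reaches beyond -0.29 or 0.41.

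Among the membrane proteins, Mcoln1 rose. It encodes mucolipin 1, a cation channel that releases calcium from the lysosome. Its level was 11.21, 11.17 and 11.13 on the Rluc.713 arrays and 11.44, 11.52 and 11.44 on the Dhx9.1241 arrays. The groups did not overlap, and the gap between them was wider than the spread within either. The log2 change was 0.30 (SE 0.050, 95% interval 0.18 to 0.41, limma adjusted p = 0.0186), a 1.23-fold higher level, and its p ranked 312 among the 18784 genes. The call held without Rluc.713 replicate 1 (0.0135) and was lost without Rluc.713 replicate 2 (0.079) or replicate 3 (0.0818) and without Dhx9.1241 replicate 1 (0.0785), replicate 2 (0.0937) or replicate 3 (0.0736), with a log2 change of 0.27 to 0.32 throughout.

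Lamp1, which encodes an abundant glycoprotein of the lysosomal membrane and whose upstream sequence is printed above, had levels of 12.12, 12.17 and 12.15 with Rluc.713 and 12.24, 12.23 and 12.24 with Dhx9.1241. The groups did not overlap, but the log2 change was 0.09 (SE 0.045, interval -0.01 to 0.19, limma adjusted p = 0.452). The other 3 membrane genes had overlapping groups: Lamp2, needed for fusion with autophagosomes, had a change of -0.04, Scarb2, a receptor of the limiting membrane that also sorts an enzyme to it, one of 0.08, and Cln3, mutated in juvenile Batten disease, one of 0.02. Members with CACGTG in a window had a median change of 0.03 (n = 12, range -0.04 to 0.30), and those without 0.02 (n = 26, range -0.17 to 0.24). Mcoln1 aside, the 4 genes with TCACGTGA did not pass: Ctsa stood at 0.06, and Ctsd, Gla and Cln3 at 0.02.

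None of the 10 proteases passed in limma's test (2 at an unadjusted p under 0.05), and their median change was 0.02. Tpp1, a tripeptidyl peptidase mutated in a late infantile form of Batten disease, had the largest difference, with 11.75, 11.92 and 11.87 in the control and 12.03, 12.02 and 12.11 in Dhx9.1241. The lowest of these 6 was Rluc.713 replicate 1, and the groups did not overlap; the log2 change was 0.21 (SE 0.058, interval 0.07 to 0.34, limma adjusted p = 0.123). Lgmn, the asparagine-specific protease legumain, which trims cathepsins and antigens, had levels of 12.72, 12.78 and 12.77 against 12.91, 12.86 and 12.87. These too did not overlap, with a change of 0.13 (SE 0.047, limma adjusted p = 0.253). The cathepsins showed smaller differences. The serine carboxypeptidase gene Ctsa stood at 0.06, the aspartic protease gene Ctsd at 0.02, and the cysteine protease genes Ctsh, Ctsk, Ctsl, Ctsc, Ctsb and Ctsz between -0.06 (Ctsz) and 0.03 (Ctsh). For Ctsb the level was 11.98 ± 0.049 in the control and 11.96 ± 0.0041 in Dhx9.1241 (SD, n = 3). Ctsk, best known from osteoclasts, was dim at 6.61 ± 0.029 and 6.62 ± 0.023 (SD, n = 3), below the 25th percentile of all genes, and background signal was not measured.

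The 10 glycosidases had a median change of 0.03 and none passed in limma's test (1 at an unadjusted p under 0.05). Idua, which removes iduronic acid from heparan and dermatan sulfate, had levels of 9.90, 9.98 and 9.91 with Rluc.713 and 10.20, 10.24 and 10.09 with Dhx9.1241. All 3 Dhx9.1241 arrays lay above all controls, with a log2 change of 0.24 (SE 0.056, interval 0.11 to 0.37, limma adjusted p = 0.0641). It was past the threshold in 5 of 15 alternative analyses, with an adjusted p of 0.0217 to 0.243 over all of them. Hexa, the alpha subunit of beta-hexosaminidase, which degrades GM2 ganglioside, had 10.96, 11.06 and 10.98 against 10.93, 10.91 and 10.83, a change of -0.11 (SE 0.053, limma adjusted p = 0.430), with groups that did not overlap. Gusb (beta-glucuronidase) and Manba (beta-mannosidase), both at 0.11, and Glb1 (beta-galactosidase), at 0.10, also had groups that did not overlap. Gaa (acid alpha-glucosidase, 0.04), Gla (alpha-galactosidase, 0.02), Man2b1 (alpha-mannosidase, 0.02) and Naglu (which acts on heparan sulfate, -0.04) overlapped. Galc, which degrades galactosylceramide, was dim, at 6.62 ± 0.029 and 6.61 ± 0.10 (SD, n = 3).

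Idua acts with the iduronate sulfatase Ids on the same glycans. Ids had a change of 0.10 (limma adjusted p = 0.563), with Dhx9.1241 above Rluc.713 on all arrays. The other sulfatases did not share this sign: Arsa, which acts on sulfatide, was at 8.77 in both groups, and Arsb, which acts on dermatan sulfate, had levels of 11.33, 11.37 and 11.34 against 11.27, 11.25 and 11.19. For Arsb all Dhx9.1241 arrays lay below all controls, with a change of -0.11 (SE 0.047, limma adjusted p = 0.346).

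The proteins that present lipids to these enzymes had opposite signs. Gm2a, the activator that lifts GM2 ganglioside to beta-hexosaminidase, had levels of 12.46, 12.49 and 12.48 with Rluc.713 and 12.68, 12.60 and 12.67 with Dhx9.1241. Its difference was 0.17 on the log2 scale (SE 0.047, interval 0.06 to 0.28, limma adjusted p = 0.113). Psap, the precursor of the saposins, had 13.28, 13.31 and 13.32 against 13.19, 13.19 and 13.14, a change of -0.13 (SE 0.046, interval -0.24 to -0.03, limma adjusted p = 0.203). Neither passed, although in both the groups did not overlap and were apart by more than the spread within them. Npc2, which carries cholesterol out of the lumen, stood at 0.12 (SE 0.045, limma adjusted p = 0.238), with 10.52, 10.55 and 10.51 against 10.67, 10.66 and 10.63. Grn, the progranulin gene, stood at -0.09 with overlapping groups.

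None of the 4 genes of lipid and acyl chain hydrolysis passed in limma's test (0 at an unadjusted p under 0.05). The sphingomyelinase gene Smpd1 (0.11) and the palmitoyl thioesterase gene Ppt1 (0.07) had groups that did not overlap, and the ceramidase gene Asah1 (-0.05) and the acid lipase gene Lipa (-0.04) did overlap. The acid phosphatase genes Acp2 and Acp5 stood at 0.09 and 0.03. Acp2 was the least precise member (SE 0.12): its level was 8.63 on Rluc.713 replicate 1 and 9.11 on replicate 3, with replicate 2 close to the latter, and 9.14, 8.97 and 9.03 on the Dhx9.1241 arrays, so that only Rluc.713 replicate 1 was low.

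The TFEB family showed no common direction. Tfeb had levels of 10.34, 10.45 and 10.43 with Rluc.713 and 10.29, 10.20 and 10.22 with Dhx9.1241. All Dhx9.1241 arrays were below all controls, and the log2 change of -0.17 (SE 0.053, interval -0.29 to -0.05, limma adjusted p = 0.164) was the lowest of the 41 genes. It passed in 3 of the 15 alternative analyses, namely a repeated quantile normalization (0.0281), array weights (0.0331) and cyclic loess (0.0354), where the change was -0.19 to -0.20. Tfe3 had 9.60, 9.77 and 9.65 against 9.78, 9.76 and 9.70, a change of 0.07 (SE 0.057, limma adjusted p = 0.704). Mitf had 7.90, 7.89 and 7.95 against 7.90, 7.85 and 7.84, a change of -0.05 (SE 0.047, limma adjusted p = 0.787). Both overlapped between the groups. These are transcript levels, and the location and activity of the factors were not measured.

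**Figure D2:**
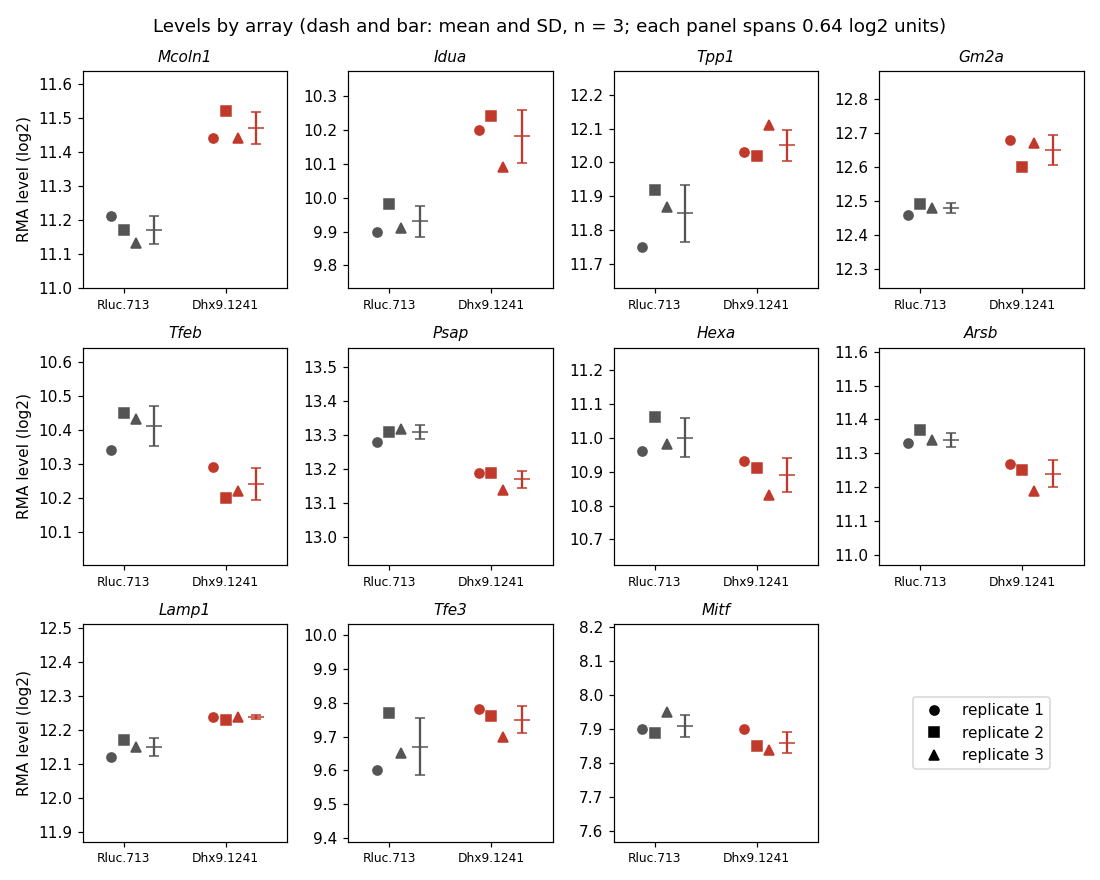
RMA level on the log2 scale (y axis) on each array of Rluc.713 (grey) and Dhx9.1241 (red) for 11 genes; symbols mark the replicate, dash and bar the mean and SD (n = 3), and every panel spans the same range. Mcoln1, from 11.17 to 11.47, has the widest gap between the groups, and Tfe3 and Mitf overlap.

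In all, 18 of the 41 members had groups that did not overlap, 14 with Dhx9.1241 higher and 4 with it lower (43.9%). The share was 20.1% over all genes (11.6% higher and 8.51% lower) and 31.5% among the brighter genes (18.2% higher and 13.4% lower). On Rluc.713 replicate 1, 4 of the 41 members were above the mean of their group, against 32 on replicate 2 and 24 on replicate 3, and the median deviation over the members on that array was -0.04. With that array left out, 14 members were higher and 9 lower with no overlap (56.1%, against 41.1% of all genes and 51.0% of the brighter ones), and the median change was -0.01. With each array centred on its median, 7 were higher and 4 lower (26.8%, against 16.5% and 21.2%).

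**Figure D3:**
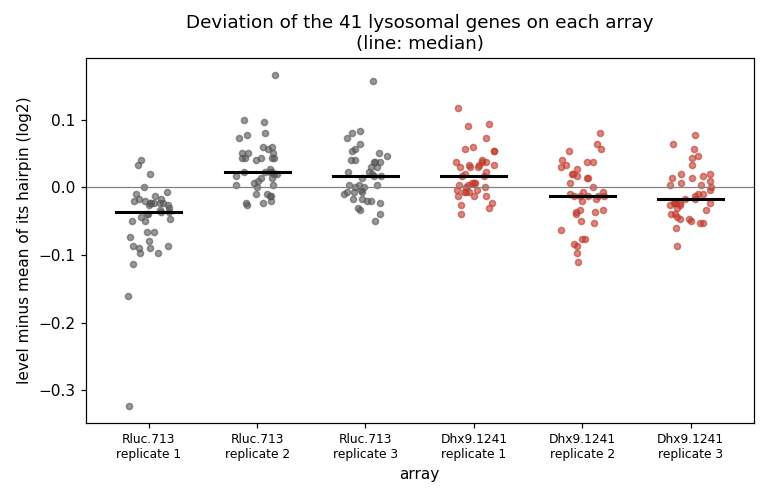
Level of each of the 41 lysosomal genes minus its mean over the 3 arrays of the same hairpin (y axis, log2 units), by array (x axis), with a line at the median. On Rluc.713 replicate 1 the median is -0.04 and most points lie below 0; the lowest point is Acp2.

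Other genes of the pathway came from 6 lists, of which 168 genes were measured: 8 rose, 1 fell and 159 did not pass (5.36%, against 3.14% of all genes and 5.15% of the brighter ones). The split was 11 up and 3 down under a repeated quantile normalization and 10 and 3 under cyclic loess. More of all genes were also called lower under both. How many of all genes were called higher there is not given, so the upward counts have no background beside them. Larger differences than any in the 41-gene set were found here. Rragd, a Rag GTPase that helps recruit mTORC1 and TFEB to the lysosome, had levels of 7.56, 7.86 and 7.75 with Rluc.713 and 8.54, 8.56 and 8.51 with Dhx9.1241, a log2 change of 0.81 (SE 0.075, limma adjusted p = 0.0015). It was the 1 gene called of 25 measured for the control of TFEB by mTORC1. Its mean level lay at percentile 43.9 of all genes, below the median. Igf2r, the large mannose 6-phosphate receptor, which carries new hydrolases to endosomes, had 9.83, 9.96 and 9.92 against 10.51, 10.37 and 10.38, a change of 0.52 (SE 0.059, limma adjusted p = 0.00365). It was the 1 gene called of 20 sorting genes, while Gnptab and Gnptg, subunits of the enzyme that makes the tag, stood at 0.12 and 0.25 and did not pass.

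Among 29 other hydrolases 2 rose (6.9%, against 3.14% of all genes and 5.15% of the brighter ones). Ctse, an aspartic protease of the endosomes, went from 11.29 ± 0.064 to 11.82 ± 0.081 (SD, n = 3; log2 change 0.53, limma adjusted p = 0.00345), and Neu1, the lysosomal sialidase, from 10.43 ± 0.099 to 10.73 ± 0.062 (0.30, limma adjusted p = 0.0485). Among 33 other membrane proteins 2 rose and 1 fell (9.09%). Sidt2, a nucleic acid transporter of the lysosome, rose by 0.33 (limma adjusted p = 0.0137) and Laptm4a by 0.23 (0.0495). Cd63, a tetraspanin of late endosomes and lysosomes, fell from 7.83 ± 0.18 to 7.15 ± 0.074 (SD, n = 3; log2 change -0.68, limma adjusted p = 0.00658). Its level was 7.62, 7.94 and 7.93 with Rluc.713 and 7.07, 7.21 and 7.18 with Dhx9.1241, so all 3 were below all controls. The mean level of Cd63 lay at percentile 30.1 of all genes, below the median, and background signal was not measured.

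None of 21 subunits and partners of the vacuolar ATPase passed in limma's test. At an unadjusted p under 0.05, 3 were lower and 0 higher (14.3%, against 14.1% of all genes and 22.1% of the brighter ones). Atp6v1e1 at -0.17 and Atp6v0d1 at 0.14 had the largest differences. Of 40 autophagy genes 2 rose (5%, against 3.14% of all genes and 5.15% of the brighter ones). These were Map1lc3a, which encodes a ubiquitin-like protein of the autophagosome membrane (0.31, limma adjusted p = 0.0276), and Atg9a, a lipid scramblase (0.26, limma adjusted p = 0.0317). The autophagy receptor gene Sqstm1 stood at 0.18 (limma adjusted p = 0.119). Without Rluc.713 replicate 1, 11 pathway genes rose and 3 fell; 4 rose without Rluc.713 replicate 2 or Dhx9.1241 replicate 3, and 3 without Rluc.713 replicate 3 or Dhx9.1241 replicate 1 or 2, with 1 lower each time. Rragd, Igf2r, Ctse and Cd63 passed in every fit that left out 1 array. Sidt2 lost its call without Rluc.713 replicate 3 (0.0539), Dhx9.1241 replicate 1 (0.0765) or replicate 2 (0.0675). Laptm4a, Map1lc3a and Atg9a passed only without Rluc.713 replicate 1 (0.0195, 0.0289 and 0.0329), and Neu1 in none of these 6 fits (0.0527 to 0.200).

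**Figure D4:**
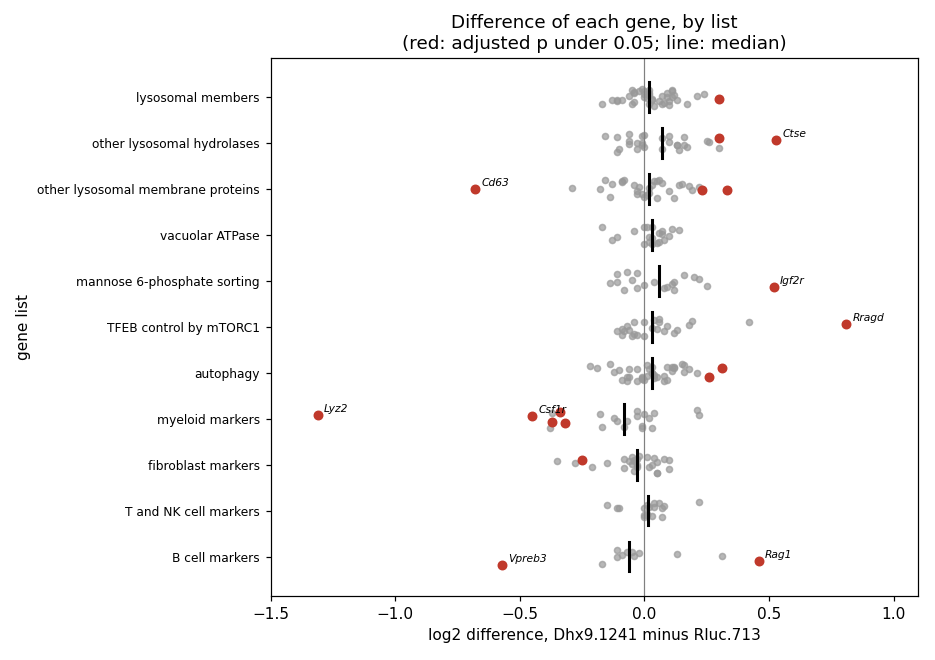
Log2 difference (x axis, Dhx9.1241 minus Rluc.713) of each gene in the 41-gene set, 6 other lists of the pathway and 4 marker lists (y axis); red points passed an adjusted p under 0.05 and a line marks the median. The 41 genes lie between -0.17 and 0.30, inside the range of Cd63 (-0.68) and Rragd (0.81).

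Myeloid cells, which are rich in lysosomal transcripts, were represented by 23 measured markers, and 5 fell and 0 rose in Dhx9.1241 (21.7%, against 3.14% of all genes in either direction and 1.07% downwards): Lyz2 (-1.31), Csf1r (-0.45), Tyrobp (-0.37), Cd33 (-0.34) and Fcer1g (-0.32). Their mean log2 level was 8.54 to 8.60 on the Rluc.713 arrays and 8.39 to 8.41 on the Dhx9.1241 arrays, with no marker at 0, since this scale has no zero. Fewer cells of a type and less RNA per cell cannot be told apart in such samples. The 41 lysosomal genes had a mean level of 10.82 to 10.90 with Rluc.713 and 10.89 to 10.92 with Dhx9.1241. Of them, 14 were higher on all Dhx9.1241 arrays than on all controls, and 4 (Tfeb, Psap, Hexa and Arsb) were lower. Together these made 43.9%, against 20.1% of all genes (11.6% higher and 8.51% lower). Among the brighter genes the share was 31.5% (18.2% higher and 13.4% lower). Without Rluc.713 replicate 1, 14 members were higher and 9 lower (56.1%, against 41.1% of all genes and 51% of the brighter ones). The part of the myeloid markers in the levels of the lysosomal genes was not tested. At an unadjusted p under 0.05, 2 myeloid markers were higher and 9 lower (47.8%, against 14.1% of all genes). Under a repeated quantile normalization or cyclic loess, 1 myeloid marker was called higher and 5 lower. A variance trend with robust estimation gave 1 higher and 7 lower, and testing the brighter genes alone 1 and 4 of 11. In fits that left out an array, 6 fell without Rluc.713 replicate 1, 4 without its replicate 3, 3 without its replicate 2 or Dhx9.1241 replicate 1 or 2, and 2 without Dhx9.1241 replicate 3; Lyz2 and Tyrobp passed in all 6. Of 27 fibroblast markers 1 fell, Cav1 (-0.25, limma adjusted p = 0.0485, lost in each fit without 1 array, 0.0543 to 0.190), with mean levels of 7.83 to 7.99 and 7.83 to 7.86. None of 18 markers of T and NK cells passed in limma's test (1 at an unadjusted p under 0.05; Klrb1c at 0.22 and Zap70 at -0.15 differed most), with mean levels of 7.34 to 7.47 and 7.41 on all 3 Dhx9.1241 arrays. Of the 12 B cell markers, Vpreb3 (-0.57) fell and Rag1 (0.46) rose, the latter lost without Rluc.713 replicate 2 (0.0615) or Dhx9.1241 replicate 1 (0.0687) or 3 (0.0871), and mean levels were 11.67 to 11.77 and 11.65 to 11.74.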

How the data were processed

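Total RNA from the 6 samples was labelled with a 3′ in vitro transcription kit and hybridised to Affymetrix arrays, per the labels' protocols. The authors deposited log2 values, a single one for each probe set on each array, obtained with RMA according to the submitters' processing notes. RMA normalizes the arrays together and can compress differences of dim genes. The version of RMA, its settings, how probe sets were defined and the genome build: not given in the sources used here. Values ran from 3.97 to 14.57, with array medians of 8.43 to 8.51, which is what identified them as log2.

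Of 21212 probe sets, 18786 had 1 gene symbol, 6 several and 2420 none here. For 18775 the symbol was updated by Entrez number through RefSeq's gene table of GRCm38.p6. For 2 genes with several probe sets the one with the highest mean was used, leaving 18784 genes. Some list genes are not reported here. Dhx9.1241 minus Rluc.713 was fitted with limma 3.58.1 (lmFit, eBayes) in R 4.3.3, two-sided, with Benjamini-Hochberg adjustment over all genes and a threshold of 0.05; the fit was tested on simulated data. SDs are over 3 arrays, whose number limits the precision. Levels of different genes are signals of different probes; they were set against the median or 25th percentile of all genes only to say how bright a gene was, not how abundant its transcript.

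The 41 members and all lists were chosen with earlier results of these data known. Every member is described; called members, the 4 largest changes in each direction, Lamp1 and the TFEB family are given in full. In other lists, up to 6 called genes are named, or the 2 with the largest change. Cd33, Fcer1g and further genes are given as members of their list.

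Alternatives were 2 filters on dim genes, 3 other normalizations, a variance trend with robust estimation, array weights, a replicate block, the mean over probe sets, and leaving out each array. Running them for the other lists was added after seeing the data.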

Additional observations from a re-analysis of the deposited data

How the results depend on the processing

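Of the 41 members, 7 passed the threshold under at least 1 of 15 alternatives (Mcoln1, Idua, Tfeb, Tpp1, Gm2a, Lgmn and Psap) and 34 under none; 11, with reported changes of -0.02 (Ctsb) to 0.09 (Acp2), had both signs among the alternatives. In the main fit 1 member was higher and 0 lower, with 389 genes higher and 201 lower in all. With a filter on dim genes at the 25th percentile, 2 members were higher. Testing the brighter genes alone (the median level as the limit) gave 4 members higher, with 609 genes higher and 382 lower in all, 4 pathway genes lower and 3 marker genes higher. Quantile normalization again gave 3 members higher and 1 lower, 360 genes lower in all, 3 pathway genes lower and 3 marker genes higher. Centring each array on its median gave 250 genes higher in all, 4 pathway genes higher and 11 members with groups that did not overlap. Cyclic loess gave 4 members higher and 1 lower, 345 genes lower in all, 3 pathway genes lower and 3 marker genes higher. A variance trend with robust estimation gave 5 members higher and 1 lower, 673 genes higher and 466 lower in all, 15 pathway genes higher and 6 lower, and 3 marker genes higher. Array weights gave 2 members higher and 1 lower, 669 genes higher and 542 lower, 16 pathway genes higher and 5 lower, and 2 marker genes higher. Where counts over all genes are given for settings with more members called, they too were above those of the main fit. For the filter at the 25th percentile none is given, and for quantile normalization and cyclic loess only the lower count. The members called higher in those settings thus have no all-gene count beside them. The cause of these shifts was not tested. Whether the replicate numbers pair the samples could not be settled. Deviations of same-numbered arrays correlated at -0.27, -0.34 and 0.24, and Rluc.713 replicate 1 correlated best with Dhx9.1241 replicate 2 (0.48). With 3 arrays in a group these correlations are tied to one another. With the number as a replicate block, 0 members were higher (Mcoln1 adjusted p = 0.079), 172 genes were higher and 92 lower in all, and 3 pathway genes were higher. Leaving out 1 array, which also leaves fewer samples, gave 0 to 1 members higher, 126 to 497 genes higher and 70 to 399 lower in all, 3 to 11 pathway genes higher and 1 to 3 lower, 0 to 1 marker genes higher and 3 to 8 lower, and a median change of the members of -0.01 to 0.05. No called value of a gene named here changed sign under any alternative run. The mean over the probe sets of a gene changed none of these counts. Each member had 1 probe set and only 2 genes had several, so this was nearly the main fit again. Signal over background was not given in the values used here, so what it limits for the dim members Ctsk and Galc was not measured.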
